A study of Rattus norvegicus with 12 samples.

Results

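The genes that build the starting complex of RNA polymerase II were measured in rat ganglionic eminences, the embryonic source of the striatum and of cortical interneurons, on embryonic day 14. Members were all genes whose annotated symbol starts with Gtf2 or Polr2, or with Taf or Med followed by a digit, together with Tbp. They numbered 64 of 14506 named genes, read by 69 of 29214 probe sets, and each gene is described by its probe set with the highest mean. By complex they fell into 14 TFII factors, 11 subunits of TFIID, 6 other Taf genes, 23 Mediator subunits and 10 polymerase II subunits. One further probe set was annotated to several genes of which 1 fits the naming rule, and it was not used.

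The study compared 6 homozygous BACHD embryos, whose added artificial chromosome holds the whole human mutant huntingtin gene (96 CAG repeats), with 6 wild-type rat embryos. Medial and lateral eminences of each embryo, freed of meninges, formed 1 sample, 1 array was made per embryo, and all embryos came from 3 transgenic dams dissected on the same day. The dam and sex of each embryo were not given, and the rat huntingtin gene is still present in both groups, so the comparison is of an added human gene and not of a replaced one. Since the tissue is bulk, fewer cells of a type and less RNA per cell cannot be told apart. Of 10 measured genes that mark the eminences, among them Dlx1, Gad1 and Nkx2-1, all 10 were above the array medians in every array and none passed the test. Nkx2-1, which marks the medial eminence, was higher in homozygous embryos without overlap, as were 1.25% of all genes (0.16 ± 0.0403 on the log2 scale, adjusted p = 0.108 in limma). Dlx5 differed by -0.18 ± 0.0804 (adjusted p = 0.321) with overlapping groups. At an unadjusted p under 0.05 these were 1 higher and 1 lower, against 9.18% and 5.93% of all genes. Lhx6 (0.07), Gad1 (0.06), Dlx1 (0.03), Ebf1 (0.02) and Meis2 (0.01) had higher means, and Isl1 (-0.10), Gsx2 (-0.03) and Gad2 (-0.01) lower ones. The part of such shifts in the values below was not tested.

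RNA polymerase II makes messenger RNA but cannot find a gene's start alone. TFIID, built from the TATA-binding protein Tbp and the Taf proteins, marks the core promoter. TFIIA and TFIIB then settle there, TFIIF brings the polymerase, and TFIIE and TFIIH open the DNA. Mediator bridges this complex to transcription factors bound farther away. The machinery is of interest in Huntington's disease because, in work on other systems, mutant huntingtin protein was found to bind TFIID and TFIIF, and because Tbp itself carries a glutamine tract. Arrays measure the RNA of these genes and say nothing of such binding.

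Of the 64 members, Gtf2f1 passed the test over all probe sets, and it rose in homozygous embryos. Because Gtf2f1 and Gtf2f2 encode both subunits of TFIIF, and Polr2j had the next smallest p among members with a higher mean in homozygous embryos, the 250 bases before their start sites are printed first. They are from RefSeq, assembly GRCr8, and read 5′ to 3′ on the strand of the gene, which is the minus strand for all 3. The windows lie at chr9:1940198-1940447 for Gtf2f1, chr15:57736478-57736727 for Gtf2f2 and chr12:26185202-26185451 for Polr2j, and none overlaps an annotated gene. Capitals mark a match, on either strand, to 1 of 7 motifs searched: the TATA box TATAAA, the cyclic AMP response element TGACGTCA, the E-box CACGTG, the ETS core CCGGAAG, the NRF1 core GCATGCGC, the SP1 core GGGCGG and the CCAAT box CCAAT.
Gtf2f1: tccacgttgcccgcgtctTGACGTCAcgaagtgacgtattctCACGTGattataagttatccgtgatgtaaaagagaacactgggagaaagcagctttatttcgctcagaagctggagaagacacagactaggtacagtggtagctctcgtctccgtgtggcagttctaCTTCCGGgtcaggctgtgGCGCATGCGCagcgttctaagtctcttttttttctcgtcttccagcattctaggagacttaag
Gtf2f2: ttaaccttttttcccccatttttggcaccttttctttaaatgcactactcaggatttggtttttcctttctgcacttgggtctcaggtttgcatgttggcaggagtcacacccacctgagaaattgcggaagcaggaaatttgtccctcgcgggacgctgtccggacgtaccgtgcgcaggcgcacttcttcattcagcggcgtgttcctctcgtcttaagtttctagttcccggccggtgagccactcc
Polr2j: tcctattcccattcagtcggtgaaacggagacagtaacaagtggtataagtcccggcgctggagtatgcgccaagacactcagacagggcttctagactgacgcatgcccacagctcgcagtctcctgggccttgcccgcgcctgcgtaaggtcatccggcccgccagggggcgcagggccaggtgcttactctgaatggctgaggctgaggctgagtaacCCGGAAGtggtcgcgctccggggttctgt

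The Gtf2f1 window held 5 matches: a cyclic AMP response element whose first base lay 232 bases before the start, an E-box at 208, an ETS core at 81, and NRF1 cores at 63 and 61 that overlap each other. The Polr2j window held 1 match, an ETS core at 29, and the Gtf2f2 window none. Promoter windows were listed for 55 of the 64 members, 56 windows in all. The ETS core was in 14 of these 56 windows (25%), against 7.27% of all 33469 windows and 11.2% of the 12519 windows of genes named on the array. The E-box was in 11 (19.6%, against 5.59% and 6.83%), the cyclic AMP response element in 4 (7.14%, against 1.59% and 2.28%) and the NRF1 core in 3 (5.36%, against 2.2% and 3.52%). The SP1 core was in 38 (67.9%, against 30.5% and 47.3%), the CCAAT box in 20 (35.7%, against 34% and 35.4%) and the TATA box in 3 (5.36%, against 12.9% and 11%). These are matches of letters only, the motif list was drawn up with the Gtf2f1 window in view, and no test was made of them.

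Gtf2f1, the large subunit of TFIIF (Rap74), had log2 intensities between 9.79 and 9.99 in wild type (median 9.90) and between 10.08 and 10.19 in homozygous embryos (median 10.10). Every homozygous embryo lay above every wild-type embryo. The means were 9.90 ± 0.0762 and 10.12 ± 0.0436 (SD, n = 6 each), a difference of 0.23 ± 0.0372 (log2, SE) or 1.17-fold (95% confidence interval 1.11 to 1.24). The adjusted p was 0.0273 in limma over all 29214 probe sets. Its partner Gtf2f2 (Rap30), without which TFIIF does not form, ranged from 8.48 to 8.70 in wild type (median 8.57) and from 8.54 to 8.65 in homozygous embryos (median 8.62). The homozygous values lay inside the wild-type range, and the difference was 0.02 ± 0.0414, with an interval from -0.07 to 0.11 (adjusted p = 0.815), and 0.04 ± 0.0445 without wild type 1 and 2. Within each array the log2 difference between the 2 probe sets, Gtf2f1 minus Gtf2f2, was 1.15 to 1.43 in the wild-type arrays and 1.45 to 1.54 in the homozygous arrays, without overlap. Its mean was higher by 0.20 in homozygous embryos, and by 0.14 without wild type 1 and 2. This difference of subunits was looked at after the values were seen and was not tested.

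**Figure D1:**
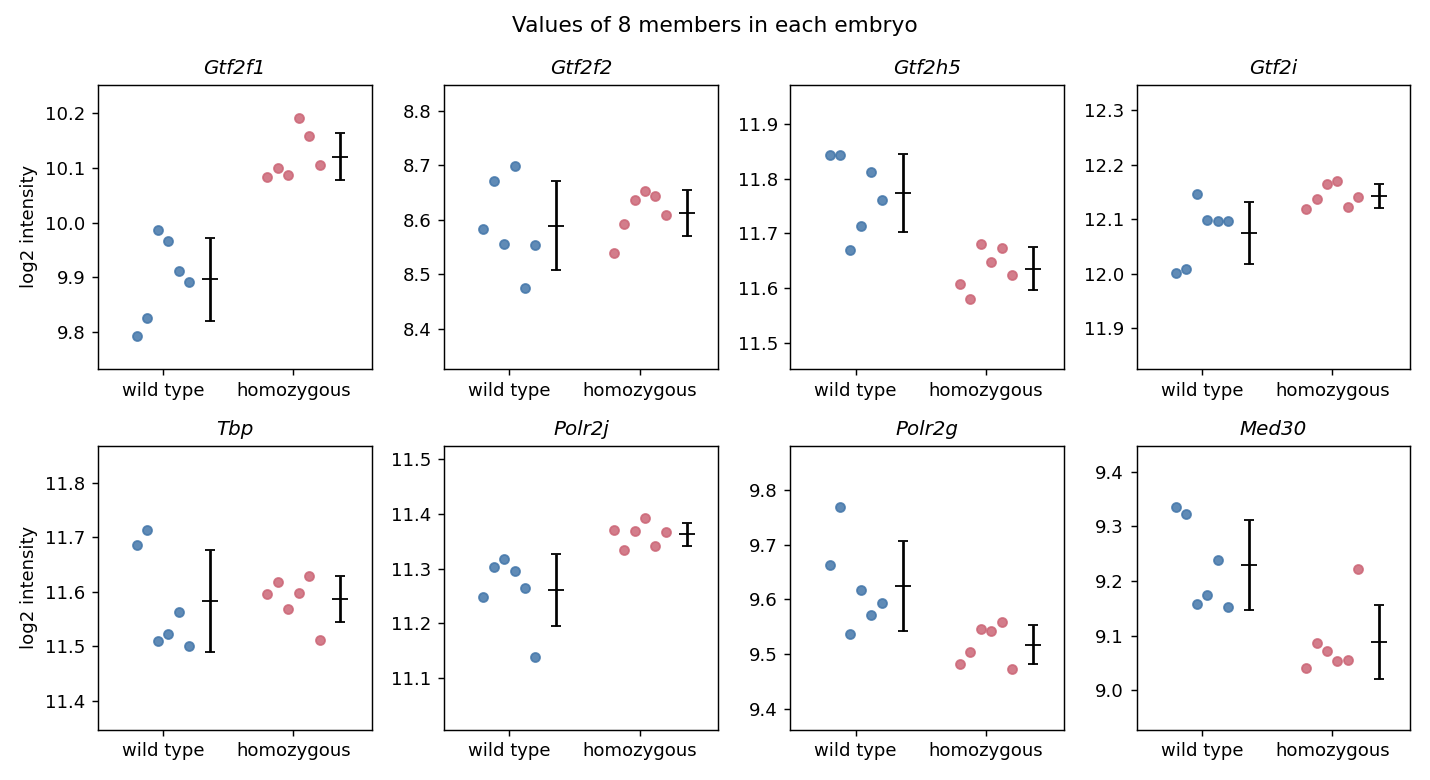
Log2 intensity (vertical axis, a span of the same length in each panel) of 8 members in the 6 wild-type embryos (blue) and 6 homozygous embryos (red), in order of replicate number. Black marks give the mean with 1 SD. The groups are apart for Gtf2f1 and Polr2j and overlap for the 6 others.

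The call of Gtf2f1 rested on a narrow margin. Of 12 fits with 1 array left out, 5 kept an adjusted p under 0.05, those without wild type 1 (0.0397), 2 (0.0434), 3 (0.0232) or 4 (0.0480) or homozygous 6 (0.0492). Leaving out wild type 5 (0.0621) or 6 (0.0643) ended the call, as did leaving out homozygous 1 (0.0545), 2 (0.0625), 3 (0.0791), 4 (0.0720) or 5 (0.0728), while the difference stayed between 0.20 and 0.24. With the replicate number as a block the adjusted p was 0.0694, without the intensity trend 0.0667, with the dim-minus-bright level of each array as a covariate 0.0790 and with the level of Eif2s3 as a covariate 0.0525.

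**Figure D2:**
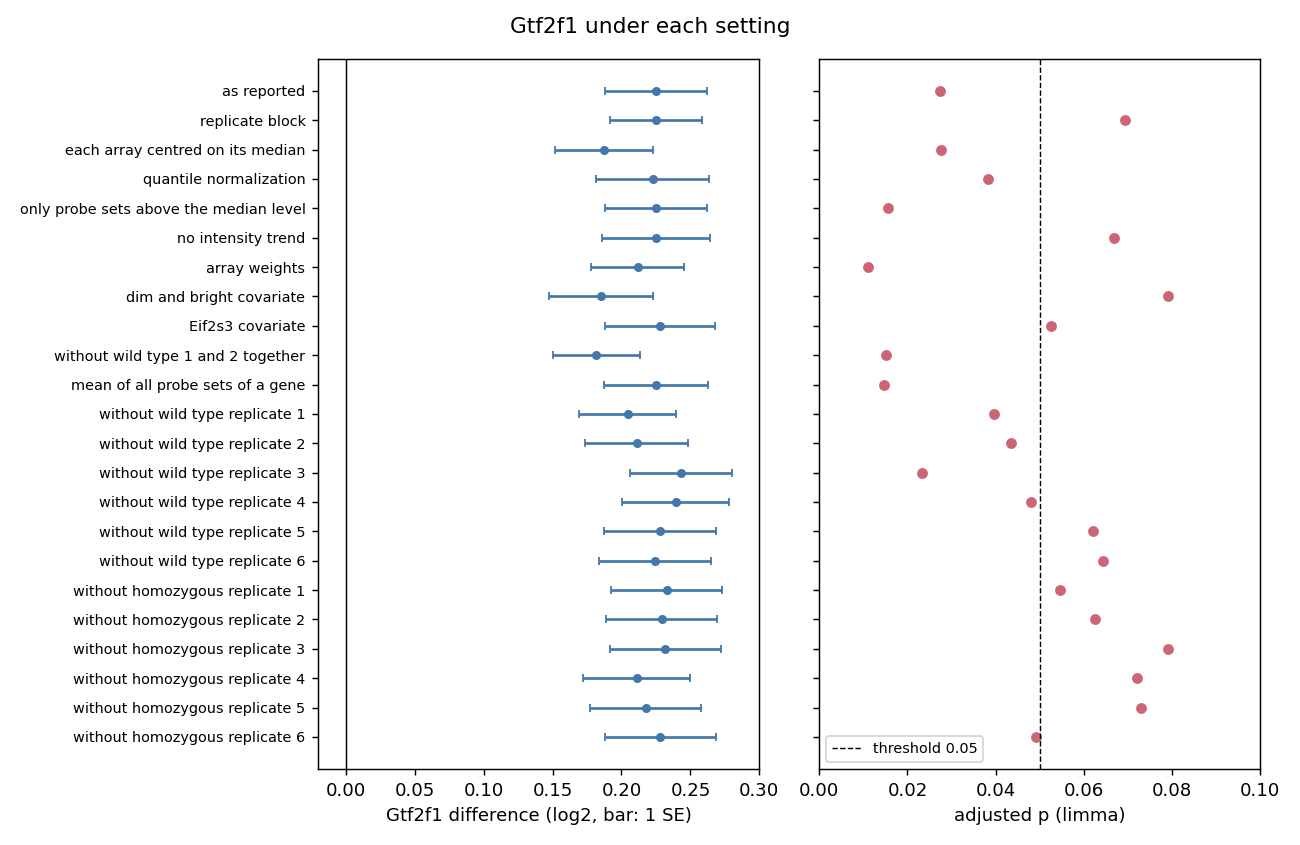
Gtf2f1 under each of 23 fits. The left panel shows the difference, homozygous minus wild type (log2, bars 1 SE), and the right panel the adjusted p in limma with the threshold of 0.05 as a dashed line. The difference stays between 0.18 and 0.24 while the adjusted p lies on both sides of the threshold, from 0.0111 to 0.0791.

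Gtf2f1 was 1 of 64 members called higher (1.56%), where 0.2% of all 14506 genes were called higher by the same rule. No member was called lower, where 0.269% of all genes were. In either direction 0.469% of genes and 0.424% of all probe sets were called. At an unadjusted p under 0.05 there were 6 members with a higher mean in homozygous embryos (9.38%, against 9.18% of all genes) and 7 with a lower mean (10.9%, against 5.93%), together 13 (20.3%, against 15.1%). The split moved with the scaling: with each array centred on its median it was 1 and 13 (all genes 3.31% and 13.5%), and after quantile normalization 5 and 7 (5.9% and 8.64%). Gtf2f1 and Polr2j were the members whose groups did not overlap (3.12%, against 2.2% of all genes), both higher in homozygous embryos, where 1.25% of genes were higher and 0.944% lower without overlap. The difference was above 0 in 33 of the 64 members and in 61.4% of all genes. Differences were small: 53 of the 64 members (82.8%) differed by less than 0.1 on the log2 scale, as did 79.4% of all genes, and for 50 members the whole interval lay within 0.2 of 0. The median difference of the members was 0.00 and that of all genes 0.02. Centring the arrays lowered every difference by the same amount. It moved the median of all genes from 0.021 to -0.017 and Gtf2f1 from 0.225 to 0.187. Each difference below is to be read against a move of that size.

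**Figure D3:**
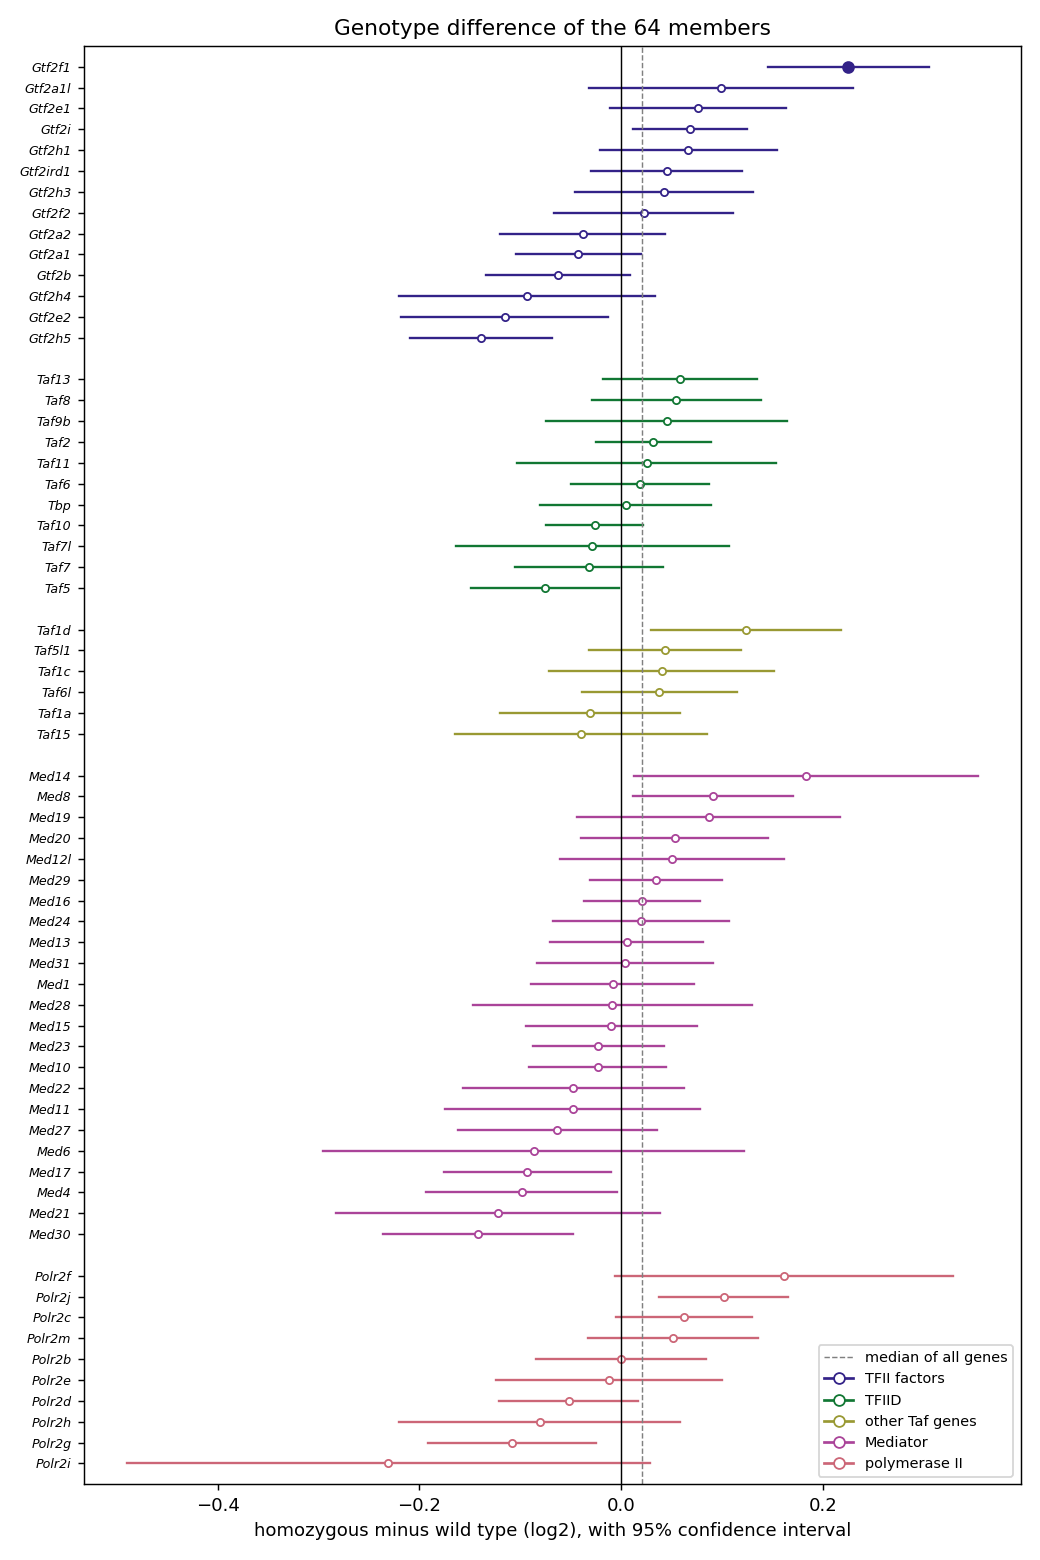
Difference between homozygous and wild-type embryos (log2) for all 64 members, with 95% confidence intervals, grouped by complex. The filled point is Gtf2f1, the member past the threshold, and the dashed line is the median of all genes (0.02). The intervals of 51 members include 0.

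Array medians were 7.67 to 7.71 (wild type) and 7.69 to 7.76 (homozygous). The dim-minus-bright level, the median of the lowest tercile of probe sets minus that of the highest, was -4.78 to -4.62 and -4.72 to -4.61. Markers of other cells were also looked at, and none of the 43 measured in 6 lists passed in limma. The level of a list is the log2 of its summed linear intensities, in which the brightest genes weigh most. For 5 erythroid genes it was 11.05 to 11.92 in wild type and 10.88 to 11.11 in homozygous embryos. At an unadjusted p under 0.05, 0 of them were higher and 2 lower, where 9.18% and 5.93% of all genes were. The 2 were Hbb-b1 (-0.64 ± 0.234) and Hbb (-0.49 ± 0.147), with Slc4a1 at -0.16, Alas2 at -0.04 and Epb42 at -0.00. For 6 pallial genes the level was 12.18 to 12.66 and 12.21 to 12.39 (0 and 3). The 3 were Neurod6 (-0.36 ± 0.105), Slc17a7 (-0.25 ± 0.0834) and Neurod2 (-0.25 ± 0.0952). Neurod1 was at -0.05, Slc17a6 at -0.01 and Emx2 at 0.08. For 9 choroid plexus and roof plate genes it was 10.06 to 10.17 and 10.08 to 10.29 (3 and 0), with 8 of the 9 below all array medians. The ranges were 11.54 to 11.75 and 11.59 to 11.65 for 8 endothelial genes (2 and 0), 10.64 to 10.86 and 10.61 to 10.82 for 8 microglial genes (0 and 0), and 10.22 to 10.36 and 10.30 to 10.42 for 7 meningeal genes (0 and 0). The part of array levels and of these cells in the members' values was not tested, except where a fit with a covariate is given.

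Wild type 1 and 2 stood apart from the other arrays in many members. In 29 of the 64 (45.3%) both lay above, or both below, all 10 other arrays, which was so for 23.2% of all genes. They were both above in 20 members (31.2%, against 13.4% of all genes) and both below in 9 (14.1%, against 9.75%). By complex the counts were 7 of 10 for polymerase II, 11 of 23 for Mediator, 7 of 14 for the TFII factors, 3 of 11 for TFIID and 1 of 6 for the other Taf genes. The median SD among wild-type embryos over the members was 0.0796, and 0.0493 over wild type 3 to 6, beside 0.0501 among homozygous embryos. Over all genes these were 0.0907, 0.0638 and 0.0714. Their arrays also had the lowest medians of all arrays (7.68 and 7.67) and the lowest dim-minus-bright levels (-4.78 and -4.77). The array weights of limma were lowest for them too (0.487 and 0.392). The labels give nothing that sets these 2 embryos apart, and their part in the members' values beyond the fits without them was not tested. Without them the difference changed its sign in 13 members and, with the sign kept, moved by over 1.5 times in 34, so for those described below it is given both ways.

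**Figure D4:**
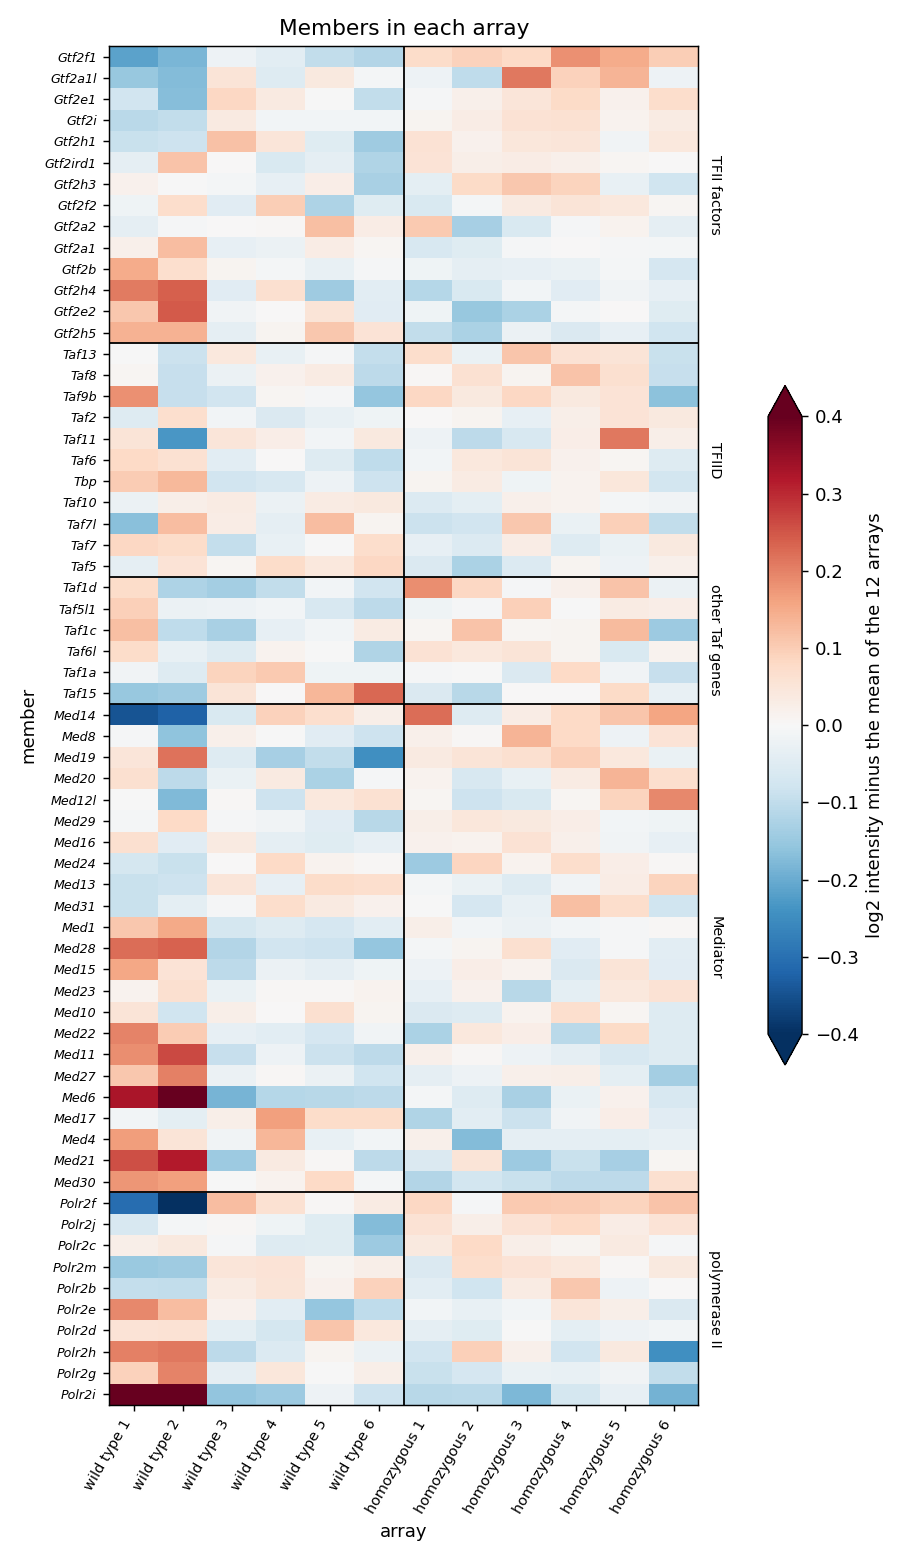
Log2 intensity of each member (rows, by complex) in each of the 12 arrays (columns), shown as the deviation from the mean of the 12 arrays, with colours clipped at 0.4 on either side. Wild type 1 and 2 share strong deviations in Polr2i, Med6, Med28 and Med21 (above) and in Polr2f and Med14 (below).

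Without wild type 1 and 2 the number of called members was 2 higher (3.12%, against 1.59% of all genes) and 0 lower (against 0.917%). They were Gtf2f1, at 0.18 ± 0.0315 (adjusted p = 0.0151 in limma), and Med19, at 0.17 ± 0.0378 (0.0371). At an unadjusted p under 0.05 there were then 13 members with a higher mean (20.3%, against 11.2% of all genes) and 5 with a lower one (7.81%, against 6.19%), where all arrays gave 6 and 7. The labels do not mark these 2 embryos, so leaving them out rests on their values in these same data. The calls and counts without them are therefore no independent result.

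Among the 14 TFII factors 1 rose, none fell and 13 did not pass, and 4 had an unadjusted p under 0.05 (28.6%, against 15.1% of all genes). Their median difference was 0.03. The one nearest to a call after Gtf2f1 was Gtf2h5, the smallest subunit of TFIIH, which stabilises that complex for transcription and DNA repair. Its values were 11.67 to 11.84 in wild type (median 11.79) and 11.58 to 11.68 in homozygous embryos (median 11.64). All 6 homozygous values were under the wild-type median, with an overlap between the highest homozygous and the lowest wild-type embryo. The difference was -0.14 ± 0.0329 (9.17% lower), with an adjusted p of 0.0871 in limma. It passed with arrays centred on their medians (-0.18 ± 0.0334, adjusted p = 0.0276) where 0.0758% of all genes were called higher and 1.21% lower, and without wild type 3 (-0.16 ± 0.0302, adjusted p = 0.0377). With the replicate block the adjusted p was 0.166, without the intensity trend 0.158 and with the dim-minus-bright covariate 0.220. Wild type 1 and 2 were the highest arrays for Gtf2h5, and without them its difference was -0.10 ± 0.0299 (adjusted p = 0.0976 in limma). The other TFIIH core subunits among the members were spread around 0. Gtf2h1 (p62) was at 0.07 ± 0.0409 (0.04 ± 0.0433 without wild type 1 and 2), Gtf2h3 (p34) at 0.04 ± 0.0412 and Gtf2h4 (p52) at -0.09 ± 0.0593. Ercc3, a core subunit outside the naming rule, was at 0.09 ± 0.0224 without overlap (adjusted p = 0.0980 in limma) and is described further below. For Gtf2h4 wild type 1 and 2 were the 2 highest arrays, and without them its difference was -0.01 ± 0.0407.

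The subunits of TFIIE, which recruits TFIIH and tunes its kinase, had differences of opposite sign. The larger, Gtf2e1, ranged from 9.71 to 9.96 in wild type (median 9.84) and from 9.87 to 9.95 in homozygous embryos (median 9.91), and its difference was 0.08 ± 0.0406 (adjusted p = 0.391). The smaller, Gtf2e2, ranged from 10.05 to 10.34 (median 10.12) and from 9.94 to 10.09 (median 10.06), with a difference of -0.12 ± 0.0479 (adjusted p = 0.284). The groups overlapped in both, and without wild type 1 and 2 the differences were 0.03 ± 0.0355 and -0.06 ± 0.0367. Gtf2b, the single-chain factor TFIIB that sets where the polymerase sits, differed by -0.06 ± 0.0332 and, without wild type 1 and 2, by -0.02 ± 0.0254. Of TFIIA, which steadies Tbp on DNA, Gtf2a1 differed by -0.04 ± 0.0288 and Gtf2a2 by -0.04 ± 0.0382, and without wild type 1 and 2 by -0.02 ± 0.0239 and -0.06 ± 0.0414. A second, dimmer probe set of Gtf2a2 read -0.10 ± 0.0543, also without a call. Gtf2a1l, the germ-cell form of the large TFIIA subunit, was dim, between 6.88 and 7.27 in all arrays, under every array median.

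Gtf2i and its relative Gtf2ird1 encode the TFII-I family, sequence-specific factors of the region deleted in Williams syndrome that are not part of the general complex. Gtf2i ranged from 12.002 to 12.15 in wild type (median 12.10) and from 12.12 to 12.17 in homozygous embryos (median 12.14), and the groups overlapped. The difference of 0.07 ± 0.0263 did not pass (adjusted p = 0.254), and it was 0.03 ± 0.0189 without wild type 1 and 2, the lowest 2 arrays. Gtf2ird1 differed by 0.04 ± 0.0350 (adjusted p = 0.552), and by 0.08 ± 0.0282 without them (adjusted p = 0.211).

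Of the 11 measured TFIID subunits none passed, and 1 had an unadjusted p under 0.05 (9.09%, against 15.1% of all genes). Their median difference was 0.02, the same as that of all genes. Without wild type 1 and 2 the median was 0.04 and that of all genes 0.02. Then 2 subunits with a higher and 1 with a lower mean had an unadjusted p under 0.05 (27.3% together, against 17.4% of all genes). Tbp, which bends the TATA box, ranged from 11.50 to 11.71 in wild type (median 11.54) and from 11.51 to 11.63 in homozygous embryos (median 11.60). The homozygous values lay within the wild-type range, where wild type 1 and 2 were the highest of the 12 arrays. The difference was 0.00 ± 0.0394, with an interval from 0.946-fold to 1.06-fold, and 0.06 ± 0.0255 without those 2 embryos (adjusted p = 0.249). Taf5, a scaffold subunit shared by the lobes of TFIID, had the smallest p of the complex. It ranged from 9.20 to 9.32 in wild type (median 9.29) and from 9.11 to 9.26 in homozygous embryos (median 9.20), at -0.08 ± 0.0342 (adjusted p = 0.316). All 6 homozygous values were under the wild-type median, and the ranges overlapped.

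The histone-fold subunits Taf13 and Taf8 differed by 0.06 ± 0.0357 and 0.05 ± 0.0390, and their partners Taf11 and Taf10 by 0.03 ± 0.0601 and -0.03 ± 0.0225. The other subunits were Taf2, which touches the initiator (0.03 ± 0.0267), Taf6 (0.02 ± 0.0321), Taf7 (-0.03 ± 0.0341) and Taf9b, a paralogue of Taf9 (0.05 ± 0.0557). Without wild type 1 and 2 Taf6 was at 0.06 ± 0.0259, Taf7 at -0.00 ± 0.0331, Taf9b at 0.08 ± 0.0496 and Taf11 at -0.01 ± 0.0543. Taf7l, the germ-cell relative of Taf7, was at or under 5.03 in every array, below all array medians. Taf1, Taf4 and Taf9 were not analysed here.

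The 6 other Taf genes do not belong to TFIID itself, and none passed. Taf1d, of the selectivity factor that starts ribosomal RNA synthesis by polymerase I, ranged from 10.27 to 10.48 in wild type (median 10.32) and from 10.38 to 10.59 in homozygous embryos (median 10.46). All 6 homozygous values were above the wild-type median, but wild type 1 and wild type 5 (10.3969) lay among them. The difference was 0.12 ± 0.0440 (adjusted p = 0.221). Of the other Taf subunits of that factor, Taf1a and Taf1c were among the members, at -0.03 ± 0.0415 and 0.04 ± 0.0520. Without wild type 1 and 2 Taf1a was at -0.06 ± 0.0450. Taf5l1, for which RefSeq lists Taf5l as a synonym, and Taf6l belong to the SAGA coactivator, and they differed by 0.04 ± 0.0351 and 0.04 ± 0.0357, and by 0.07 ± 0.0312 and 0.06 ± 0.0354 without wild type 1 and 2. All 4 probe sets of Taf5l1 were higher in homozygous embryos, by 0.03 to 0.09, and none passed. Taf15, an RNA-binding protein, read -0.04 ± 0.0584 by its brighter probe set and 0.14 ± 0.135 by its dimmer one, so its direction is uncertain. Without wild type 1 and 2 the brighter one read -0.12 ± 0.0434 (adjusted p = 0.178).

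Of 23 Mediator subunits none passed on all arrays, and the median difference was -0.01. An unadjusted p under 0.05 was found for 2 with a higher and 3 with a lower mean (21.7% together, against 15.1% of all genes). Without wild type 1 and 2 the median was 0.02, with 1 subunit called higher (4.35%, against 1.59% of all genes). At an unadjusted p under 0.05, 5 were then higher and 2 lower (30.4% together, against 17.4% of all genes). The head module, which touches the polymerase and TFIIB, had 8 measured members. Med30 ranged from 9.15 to 9.33 in wild type (median 9.21) and from 9.04 to 9.22 in homozygous embryos (median 9.06), at -0.14 ± 0.0442 (adjusted p = 0.165) and, without wild type 1 and 2, at -0.09 ± 0.0399 (0.285). In 5 of 6 homozygous embryos it was below every wild-type embryo, and homozygous 6 was the exception. Med17, a central scaffold of the head, ranged from 9.47 to 9.68 (median 9.56) and from 9.39 to 9.54 (median 9.47), at -0.09 ± 0.0386 (adjusted p = 0.284) and, without wild type 1 and 2, at -0.13 ± 0.0371 (0.0976). Med8, which links the head to its movable part, ranged from 9.96 to 10.14 (median 10.10) and from 10.11 to 10.26 (median 10.16), at 0.09 ± 0.0370 (adjusted p = 0.275). The groups overlapped in all 3, and every homozygous embryo was below the wild-type median for Med17 and above it for Med8.

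Med6, Med11, Med22 and Med28 of the head differed in sign with and without wild type 1 and 2. Med28 was 11.68 and 11.69 in those 2 embryos, 11.31 to 11.38 in the other wild-type embryos and 11.41 to 11.52 in homozygous embryos. Its difference was -0.01 ± 0.0646 on all arrays and 0.10 ± 0.0262 without them (adjusted p = 0.0640). Med6 went from -0.09 ± 0.0974 to 0.09 ± 0.0326 (adjusted p = 0.218) and Med11 from -0.05 ± 0.0591 to 0.05 ± 0.0259 (adjusted p = 0.371). Med22 went from -0.05 ± 0.0511 to 0.02 ± 0.0417, and Med20 differed by 0.05 ± 0.0434 on all arrays.

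**Figure D5:**
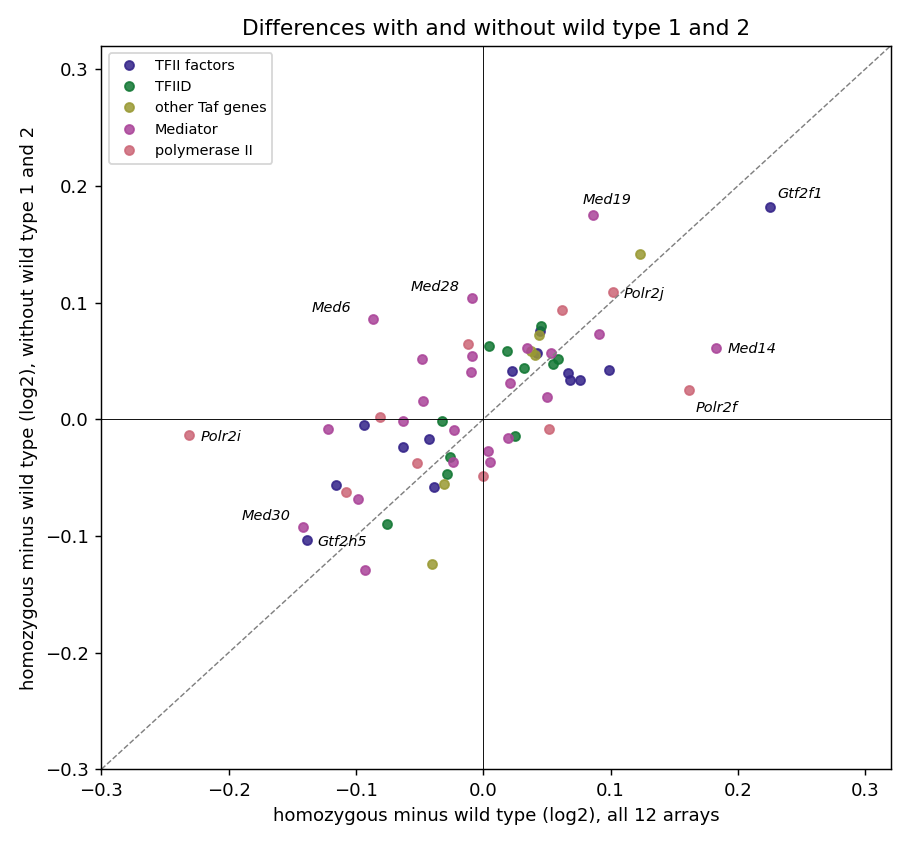
Difference between homozygous and wild-type embryos (log2) of each member on all 12 arrays (horizontal axis) and without wild type 1 and 2 (vertical axis), coloured by complex, with the line of equal values dashed. Gtf2f1 stays the highest, at 0.23 and 0.18, while Polr2i goes from -0.23 to -0.01, Polr2f from 0.16 to 0.02 and Med14 from 0.18 to 0.06.

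The middle module, which carries signals from activators to the head, had 6 measured members. Med4 ranged from 9.02 to 9.21 in wild type (median 9.07) and from 8.87 to 9.07 in homozygous embryos (median 9.01), at -0.10 ± 0.0443 (adjusted p = 0.314), with overlapping groups of which homozygous 2 was the lowest embryo. Med19 ranged from 9.75 to 10.22 in wild type (median 9.92) and from 9.97 to 10.09 in homozygous embryos (median 10.04), at 0.09 ± 0.0607 (adjusted p = 0.510). Wild type 1 and 2, at 10.05 and 10.22, were its highest wild-type embryos, and the 4 others were at or under 9.95. Leaving out its highest wild-type values could only raise the difference of Med19, which is then the second called member given above. Med21, at -0.12 ± 0.0749, was at -0.01 ± 0.0507 without them. Med1, the subunit bound by nuclear receptors, differed by -0.01 ± 0.0379, Med10 by -0.02 ± 0.0316 and Med31 by 0.00 ± 0.0407. Without them these 3 were at 0.05 ± 0.0172 (adjusted p = 0.136), -0.04 ± 0.0295 and -0.03 ± 0.0413.

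The tail binds most activators, and Med14 is the backbone that holds tail, middle and head together. Med14 ranged from 8.40 to 8.84 in wild type (median 8.73) and from 8.70 to 8.97 in homozygous embryos (median 8.85). Its difference, 0.18 ± 0.0795 (adjusted p = 0.30), was the highest of Mediator, and it was 0.06 ± 0.0526 without wild type 1 and 2, the lowest arrays at 8.40 and 8.43. Med27 and Med29 differed by -0.06 ± 0.0459 and 0.03 ± 0.0306, and without those arrays by -0.00 ± 0.0335 and 0.06 ± 0.0269. Med15, a glutamine-rich subunit, differed by -0.01 ± 0.0397 and, without them, by 0.04 ± 0.0296. Med16, Med23 and Med24 lay between -0.02 and 0.02, and without them at 0.03 ± 0.0247, -0.01 ± 0.0319 and -0.02 ± 0.0408. Of the kinase module, which holds Mediator away from the polymerase, Med13 differed by 0.01 ± 0.0355 and Med12l by 0.05 ± 0.0517, and without wild type 1 and 2 by -0.04 ± 0.0303 and 0.02 ± 0.0516. Med12 was not analysed here.

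Of the 10 polymerase II subunits none passed, and the median difference was -0.01. An unadjusted p under 0.05 was found for 1 with a higher and 1 with a lower mean (20% together, against 15.1% of all genes). Polr2j (Rpb11) forms with Polr2c (Rpb3) the dimer on which the enzyme is assembled. Polr2j ranged from 11.14 to 11.32 in wild type (median 11.28) and from 11.33 to 11.39 in homozygous embryos (median 11.37), so the groups did not overlap. The difference was 0.10 ± 0.0298 or 1.07-fold (adjusted p = 0.145) and 0.11 ± 0.0319 without wild type 1 and 2 (adjusted p = 0.104). Polr2c ranged from 10.84 to 11.03 (median 10.96) and from 10.98 to 11.07 (median 11.02), at 0.06 ± 0.0314 (adjusted p = 0.367) and, without wild type 1 and 2, at 0.09 ± 0.0285 (0.119). All 6 homozygous embryos were above the wild-type median in both genes.

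The stalk subunits Polr2d (Rpb4) and Polr2g (Rpb7), which bind the emerging RNA, had means on the other side of 0. Polr2g ranged from 9.54 to 9.77 in wild type (median 9.61) and from 9.47 to 9.56 in homozygous embryos (median 9.52), at -0.11 ± 0.0387 (adjusted p = 0.224). It was at -0.06 ± 0.0301 without wild type 1 and 2. Polr2d differed by -0.05 ± 0.0320 (adjusted p = 0.450). Polr2b (Rpb2), which forms the catalytic site together with the largest subunit, ranged from 11.31 to 11.50 (median 11.43) and from 11.32 to 11.51 (median 11.39), with a difference of -0.00 ± 0.0394 and an interval from -0.08 to 0.08, and with -0.05 ± 0.0332 without wild type 1 and 2. Polr2m, which inhibits the polymerase until Mediator is present, differed by 0.05 ± 0.0392, and by -0.01 ± 0.0250 without them. The largest subunit, Polr2a, was not analysed here.

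Polr2i and Polr2f had the widest spread of the complex, and wild type 1 and 2 were the arrays that stood apart. Polr2i (Rpb9), which helps with proofreading, was 10.51 and 10.62 in wild type 1 and 2, 9.86 to 9.996 in the other wild-type embryos and 9.83 to 9.98 in homozygous embryos. Its difference of -0.23 ± 0.121 was the lowest of all members on all arrays and -0.01 ± 0.0390 without those embryos. Polr2f (Rpb6), shared with polymerases I and III, was 11.29 and 11.19 there, 11.60 to 11.71 in the others and 11.58 to 11.70 in homozygous embryos, and its difference went from 0.16 ± 0.0780 to 0.02 ± 0.0289. The other shared subunits, Polr2e and Polr2h, differed by -0.01 ± 0.0521 and -0.08 ± 0.0652, and by 0.06 ± 0.0353 and 0.00 ± 0.0555 without the 2 embryos.

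Genes of the same pathway outside the naming rule did not pass either. The 10 measured partners were further TFIIH subunits, the Mediator kinases with their cyclin, and regulators of Tbp. Of these, 1 with a higher and 3 with a lower mean had an unadjusted p under 0.05, as did 9.18% and 5.93% of all genes. Ccnh, the cyclin of the TFIIH kinase, ranged from 9.89 to 9.999 (wild type) and from 9.78 to 9.88 (homozygous), at -0.13 ± 0.0310 (adjusted p = 0.0827). Ercc3, the TFIIH translocase that opens the promoter, ranged from 10.91 to 10.99 and from 11.01 to 11.06, at 0.09 ± 0.0224 (adjusted p = 0.0980). Neither of these genes, which had the smallest p of the list, overlapped between the groups, where 2.2% of all genes did not. Within TFIIH the kinase Cdk7 stood at -0.02 ± 0.0263 and its assembly factor Mnat1 at 0.00 ± 0.0492. Of 28 measured factors of pausing and elongation, which act after initiation, 4 with a higher and 2 with a lower mean had an unadjusted p under 0.05. Over all genes 9.18% and 5.93% did. Ssrp1, of the histone chaperone FACT, was at 0.12 ± 0.0333 (adjusted p = 0.120 in limma). Nelfe, of the pausing factor NELF, was at 0.12 ± 0.0338 (adjusted p = 0.135). In both genes, which had the smallest p of the list, every homozygous embryo was above every wild-type embryo, as in 1.25% of all genes.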

How the data were processed

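Affymetrix Rat Gene 1.0 ST arrays were used, 1 per embryo and 6 per genotype. Per the labels' protocols, the RNeasy Mini Kit gave the RNA and the Ambion WT Expression Kit the biotin label. Partek 6.4 and RMA stand in the submitters' processing notes; which did what is not given in the sources used here. Each deposited number is a log2 intensity, a scale read from the values themselves. Such processing usually equalises arrays, so a change common to every gene may not show, and short probes compress differences. Depth does not apply; the number of arrays limits precision.

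Probe sets were named from the platform annotation, used where it gives 1 gene (15310 of 29214). The build of the array design is not given in the sources used here. All 64 members matched RefSeq (GRCr8) by Entrez number, which was used for names and promoter windows. The linear model held genotype alone and was fitted to every probe set by lmFit and eBayes of limma (version 3.58.1, R version 4.3.3), allowing a trend with intensity. Tests were 2-sided, and p-values were adjusted by the Benjamini-Hochberg method across all probe sets, called at 0.05. The script was tested on simulated data. Plots used Python 3.11.15 and matplotlib 3.10.9.

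The members and lists were chosen with earlier results of these data known. Values were to be named for members past the threshold, the 3 with the smallest p in each functional group and a fixed set of core subunits (Tbp, Gtf2f1, Gtf2f2, Gtf2b, Polr2b, Med1, Med13 and Med15), 34 in all, and for the 2 with the smallest p in each outside list; the other members and the outside genes Cdk7 and Mnat1 were added after their values were seen. The labels do not say whether equal replicate numbers mark a pair or a shared litter. Between embryos of equal number, the correlation of deviations from the group means ran from -0.08 to 0.26, which cannot decide it.

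Alternatives were a replicate block, median centring, quantile normalization, a filter on dim probe sets, no intensity trend, array weights, the dim-minus-bright level or Eif2s3 as a covariate, leaving out arrays, and the mean of a gene's probe sets.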

Additional observations from a re-analysis of the deposited data

Results flagged for a closer look

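Of 68 groups of 6 embryos looked at, 3 held an embryo far from the other 5 of its group; chance gives about 1 in 20. Med30 was 9.22 in homozygous 6 and 9.04 to 9.09 in the 5 others. Med4 was 8.87 in homozygous 2 and 9.01 to 9.07 in the others. Polr2f was 11.58 in homozygous 2 and 11.67 to 11.70 in the others.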

How the results depend on the processing

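Gtf2f1 had a higher mean in homozygous embryos in all 22 alternative fits and passed in 11. It did not pass with the replicate block (0.23), without the intensity trend (0.23), with the dim-minus-bright covariate (0.19) or with the Eif2s3 covariate (0.23), and the cause was not tested. The labels do not say what equal replicate numbers share. Of the 6 wild-type embryos, 2 correlated best with the homozygous embryo of their own number, which cannot decide whether the numbers pair embryos. With the replicate block 0 members were higher past the threshold and 10 at an unadjusted p under 0.05. Past the threshold, 0 members were higher under the other 3 of these settings and 2 without wild type 1 and 2, and 1 was lower with centred arrays. At an unadjusted p under 0.05, 1 was higher and 13 lower with centred arrays (all genes 3.31% and 13.5%). Without wild type 1 and 2, 13 were higher (all genes 11.2%), and 4 were lower with the dim-minus-bright covariate. For the replicate block, the fit without the trend and the covariates no share of all genes is given here. Their counts are therefore not to be read as particular to the members. Centring moved the medians to -0.0054 (TFII factors), -0.019 (TFIID), -0.047 (Mediator) and -0.044 (polymerase II), since it lowers every difference.

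With 1 array left out in turn, 0 to 1 member was higher and 0 to 1 lower past the threshold. At an unadjusted p under 0.05, 4 to 9 were higher and 3 to 9 lower, and the shares of all genes in these fits are not given here. The medians ran from 0.02 to 0.04 (TFII factors), -0.00 to 0.03 (TFIID), -0.02 to -0.00 (Mediator) and -0.02 to 0.00 (polymerase II), and Gtf2f1 from 0.20 to 0.24.

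Of 33 other members whose values were followed, 2 passed under any setting (Gtf2h5 and Med19). Signs turned in 11 members, of which Med21 (-0.12) and Polr2h (-0.08) had the largest differences as reported. Centring gave Gtf2f2 -0.015, Med13 -0.033, Med29 -0.0034, Taf6l -5e-05 and Tbp -0.034, and quantile normalization Tbp -0.0052. Array weights gave Med1 0.024, Med13 -0.018, Med15 0.016 and Polr2e 0.041. The dim-minus-bright covariate gave Med1 0.050, Med13 -0.039, Med15 0.027, Med21 0.0040 and Polr2e 0.054, and Eif2s3 Polr2b 0.0042 and Tbp -0.011. Leaving out wild type 1 and 2 gave Med1 0.054, Med13 -0.037, Med15 0.040, Polr2e 0.064 and Polr2h 0.0020. With 1 array left out, values ran for Med1 from -0.024 to 0.021, Med13 from -0.012 to 0.021, Med15 from -0.032 to 0.020, Polr2e from -0.044 to 0.025, Polr2b from -0.022 to 0.018, Tbp from -0.012 to 0.031 and Gtf2f2 from -0.00031 to 0.044. The cause was not tested. The number of arrays, 6 a group, limits what could be called.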

Other observations

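Differences between subunits of the same assembly within an array were looked at after the values were seen and were not tested. For TFIIE, Gtf2e1 minus Gtf2e2 was higher by 0.19 (log2) in homozygous embryos, with overlapping groups, and by 0.09 without wild type 1 and 2. The same quantity differed by -0.00 for TFIIA (0.04 without them), by 0.06 for the polymerase stalk, Polr2d minus Polr2g (0.03), by -0.04 for Polr2c minus Polr2j (-0.02), by 0.08 for Taf8 minus Taf10 (0.08) and by -0.03 for Taf11 minus Taf13 (-0.07). Leaving out these 2 embryos here was chosen after seeing the data.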
